A study of Mus musculus with 6 samples.

Results

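The mitochondrial genome is a small circle carried in many copies per cell, and all 37 of its annotated genes were taken as the members here because the count tables place them on the chromosome named MT. They are 13 protein-coding genes, 2 ribosomal RNA (rRNA) genes and 22 transfer RNA (tRNA) genes, out of 41214 genes in the tables. RNA came from NMuMG-derived mammary tumor explant cells of the mouse that express ErbB2. NMuMG cells are an epithelial line from the normal mammary gland, and ErbB2 is a receptor tyrosine kinase that drives growth. One group of 3 libraries carried a control short hairpin RNA (shCTL, genotype given as WT) and the other group of 3 libraries carried a hairpin against CdGAP (shCdGAP, genotype given as CdGAP KD). ErbB2 is common to both groups, and neither the hairpin sequence, the number of clones nor the age of the cultures is stated in the sources used here. Arhgap31 encodes CdGAP, an activating protein that returns Cdc42 and Rac1 to their inactive form. Whether the replicates were grown apart is not stated in the labels, and each p-value here is set against library-to-library spread that could be technical alone.

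Each strand of mitochondrial DNA is transcribed into a long precursor that is cut into single RNAs, largely at the tRNAs that punctuate it. The rRNAs build the mitochondrial ribosome, the tRNAs serve it, and the coding genes supply core subunits of respiratory complexes I, III and IV and of ATP synthase, while nuclear genes supply the rest. In this text a gene read from the heavy strand as template is called a heavy-template gene and lies on the + strand of the reference, and a light-template gene lies on the − strand. The heavy template serves 28 genes (12 coding, 2 rRNA and 14 tRNA). The light template serves 9 genes, mt-Nd6 and 8 tRNA genes. The deposited counts were made with a strand setting, meant to keep the light-template genes apart from the heavy-template genes they lie against. How fully the libraries keep the strand of the RNA was not tested.

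The sequences of the 4 tRNA genes with enough counts to be tested are shown because they stand on both sides of the template contrast: mt-Tl1, mt-Tm and mt-Tw are heavy-template genes and mt-Tp is a light-template gene. Each is printed as the RNA-like strand, 5′ to 3′, with the anticodon in capitals, from GENCODE M21 on GRCm38.
mt-Tl1 (leucine, M: 2676 to 2750, + strand): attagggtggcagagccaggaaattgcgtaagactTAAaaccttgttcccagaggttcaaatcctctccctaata
mt-Tm (methionine, M: 3845 to 3913, + strand): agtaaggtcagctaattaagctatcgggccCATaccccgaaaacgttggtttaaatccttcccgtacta
mt-Tw (tryptophan, M: 4950 to 5016, + strand): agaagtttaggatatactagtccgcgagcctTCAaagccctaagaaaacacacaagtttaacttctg
mt-Tp (proline, M: 15356 to 15422, − strand): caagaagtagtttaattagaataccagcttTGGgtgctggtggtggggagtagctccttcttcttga

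Total counts ran from 19176540 to 26824249 fragments per library, which puts 1 count at 0.0364 to 0.0516 CPM (counts scaled to a TMM-corrected library total of 1e+06). The targeted Arhgap31 read 13.2, 14.4 and 15.1 CPM in the shCTL libraries and 1.70, 9.15 and 8.20 CPM in the shCdGAP libraries, each in order of replicate number (as are all sets of 3 values). The groups did not overlap, but the difference missed the threshold in edgeR (log2 fold change −1.16 ± 0.55, SE, adjusted p = 0.190), and passed it without shCdGAP replicate 1 (−0.71, adjusted p = 0.00407). That library stood apart over all genes too: without it 2753 genes were called higher and 3032 lower, against 1396 and 1534 with it. The epithelial keratins Krt8 and Krt18 were at 2494 to 5368 CPM in every library, and the basal keratins Krt5 and Krt14 were at 1.58 CPM or less. Of the 6 tested epithelial markers 2 rose in edgeR and 2 fell. Cdh1, which encodes E-cadherin, rose from 173, 260.3 and 263 CPM to 859, 689.8 and 754 CPM and Krt7 from 1.86, 2.18 and 1.54 CPM to 3.48, 6.39 and 6.81 CPM. Krt5 fell, and so did Epcam, which had 32, 29 and 31 counts in shCTL and 0 in every shCdGAP library. Summed markers of fibroblasts, endothelial cells, adipocytes and myoepithelial or muscle cells stayed at or below 7.06 CPM in every library, with Lum, Plin1, Acta2 and Ckm at 0 throughout. Of these lists, the endothelial sum was 1.05 to 1.24 CPM in shCTL and 0 to 0.158 CPM in shCdGAP, and the adipocyte sum was 1.45 to 2.53 and 0.179 to 0.634 CPM, and the 1 tested gene of each (Tek and Fabp4) fell in edgeR and in DESeq2. The 6 leukocyte markers summed to 16.2 to 22.2 CPM in shCTL and 3.45 to 11.3 CPM in shCdGAP. Cd68, a lysosomal protein of macrophages and some other cells, accounted for most of it in every library. Adgre1 was at 0 throughout and Ptprc was at 0.357 CPM or less. The part of these markers in the mitochondrial results was not tested.

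Mitochondrial transcripts took a larger share of the RNA in shCdGAP, and the difference lay mostly in the heavy-template coding genes. Mitochondrial genes held 1.68%, 1.69% and 1.58% of all counts in shCTL and 3.24%, 2.51% and 2.32% in shCdGAP. The group means were 1.65% ± 0.0560 and 2.69% ± 0.488 (SD, n = 3 each), a 1.63-fold difference. All shCdGAP libraries were above all shCTL libraries, and shCdGAP replicate 1 was the highest. In bulk RNA a change in mitochondria per cell, in RNA per mitochondrion, in the number of cells of a type or in RNA per cell cannot be told apart. Such shares are sums over members and are given without a p-value, since 3 libraries against 3 cannot give an exact two-sided permutation p below 0.1. Without shCdGAP replicate 1 the log2 ratio of the share was 0.55, against 0.71 with it.

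**Figure D1:**
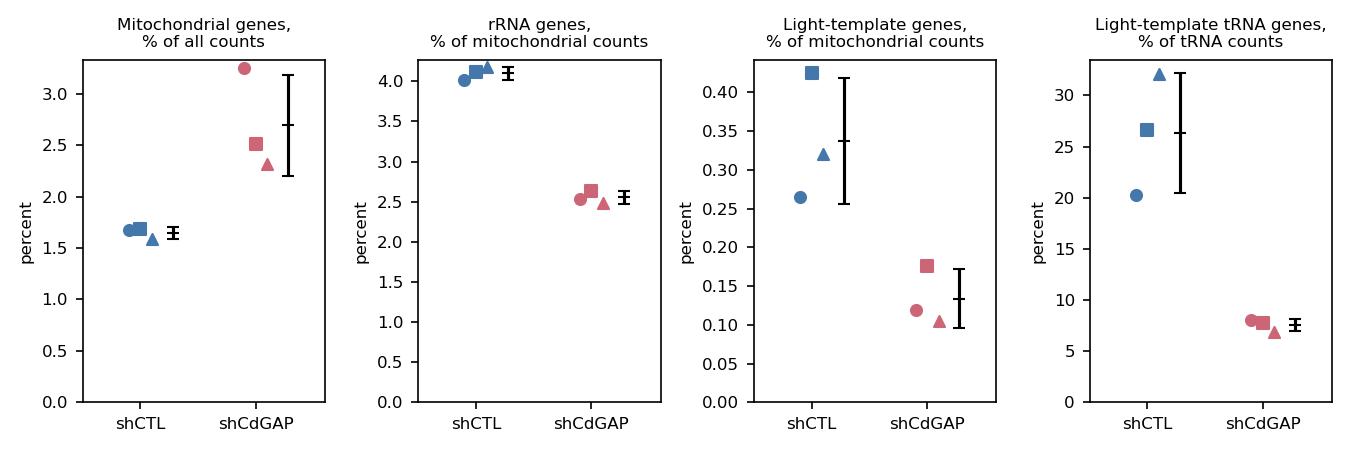
Shares of counts in percent, 1 panel per share, with shCTL libraries in blue and shCdGAP libraries in red (circle, square and triangle for replicates 1, 2 and 3) and the mean ± SD in black. In all 4 panels the groups do not overlap: the mitochondrial share is higher in shCdGAP, while the rRNA, light-template and light-template tRNA shares are lower.

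The makeup of the mitochondrial RNA differed as well. Light-template genes held 0.265%, 0.425% and 0.320% of mitochondrial counts in shCTL and 0.119%, 0.176% and 0.105% in shCdGAP, with no overlap (0.337% ± 0.0814 against 0.133% ± 0.0380, SD, n = 3 each). The 2 rRNA genes held 4.02%, 4.11% and 4.18% in shCTL and 2.54%, 2.64% and 2.49% in shCdGAP. These means, 4.10% ± 0.0797 and 2.55% ± 0.0772 (SD, n = 3 each), differed by much more than the spread between libraries. The coding genes made up the remainder almost entirely, at 95.8% to 95.9% in shCTL and 97.3% to 97.5% in shCdGAP. The tRNA genes together held 0.0414% to 0.0576% in shCTL and 0.0411% to 0.0547% in shCdGAP, ranges that overlap. On the scale of the whole library the light-template and rRNA sums both overlapped between groups. Light-template genes, mostly mt-Nd6, summed to 43.9, 69.9 and 49.6 CPM in shCTL and 40.1, 44.4 and 24.9 CPM in shCdGAP. The rRNA genes summed to 665, 676 and 646 CPM in shCTL and 852, 663 and 592 CPM in shCdGAP. A lower share here therefore depends on the higher mitochondrial total as well. How the RNA was selected for sequencing (by poly(A) tail or by removal of rRNA) is not given in the sources used here, so these shares describe the libraries and not the full RNA of the organelle.

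Gene by gene, 17 of the 37 members passed the filter on low counts: 11 coding, 2 rRNA and 4 tRNA genes. Of the others, mt-Co3, mt-Nd3 and 18 tRNA genes were not tested. In edgeR's quasi-likelihood test 10 of the 17 rose in shCdGAP and 0 fell. Without shCTL replicate 1, 2 or 3 the number that rose was 5, 4 or 4, and without shCdGAP replicate 1 there were 2 that fell. Among all 13483 tested genes 10.4% rose and 11.4% fell. At an unadjusted p under 0.05 edgeR gave 13 higher and 1 lower, and DESeq2 gave 12 higher and 0 lower after adjustment. The groups did not overlap for 14 of the 17, 13 of them higher in shCdGAP, where 44.1% of all tested genes had groups that did not overlap. The median log2 fold change of the 17 was 0.83, beside 0.01 over all tested genes. By template, 10 of 15 tested heavy-template genes rose, and 0 of 2 tested light-template genes were called in either direction. The 10 that rose share a template and the same libraries, so they are not 10 independent results. Of the 17, mt-Co2 passed the filter level of 0.420 CPM in all libraries of shCdGAP alone and mt-Tp in all libraries of shCTL alone, so their place among tested genes leans on the group where they were higher.

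**Figure D2:**
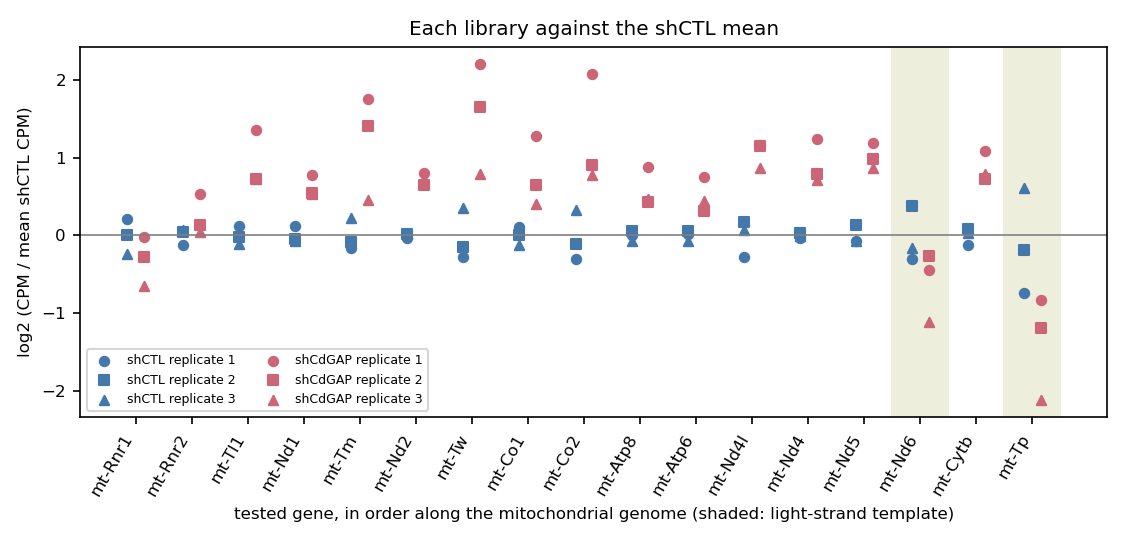
Log2 ratio of each library's CPM to the mean shCTL CPM, for the 17 tested members in order along the genome, with shCTL in blue, shCdGAP in red, replicates by symbol and light-template genes shaded. Red points lie above blue ones for 13 genes, both light-template genes have all red points below the line, and mt-Rnr1 is the only heavy-template gene whose shCdGAP points are all below the line.

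Complex I, which passes electrons from NADH to ubiquinone, takes 7 subunits from mitochondrial DNA. Its summed level was 6262 ± 189 CPM in shCTL and 10514 ± 1043 CPM in shCdGAP (SD, n = 3 each), a 1.68-fold difference between groups that did not overlap. mt-Nd5 (M: 11742 to 13565) encodes a subunit of the membrane arm. Its levels were 1027, 1189 and 1024 CPM in shCTL and 2460.1, 2140.5 and 1976 CPM in shCdGAP. Every shCdGAP library was well above every shCTL library, and the log2 fold change was 1.02 ± 0.13 (SE, edgeR adjusted p = 0.00318).

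The neighbouring membrane-arm gene mt-Nd4 (M: 10167 to 11544) was at 513, 538 and 523 CPM in shCTL and at 1241, 908 and 863 CPM in shCdGAP. It rose by 0.94 ± 0.16 on the log2 scale (SE, edgeR adjusted p = 0.00855), with shCdGAP replicate 1 the highest. mt-Nd2 (M: 3914 to 4951) had the tightest groups of the complex. It was at 1362, 1412 and 1421 CPM in shCTL and 2452, 2187 and 2323 CPM in shCdGAP, a log2 fold change of 0.73 ± 0.10 (SE, edgeR adjusted p = 0.00423). These 3 genes kept the call whichever library was left out, with edgeR adjusted p up to 0.0253 for mt-Nd5, 0.0478 for mt-Nd4 and 0.0329 for mt-Nd2.

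mt-Nd1 (M: 2751 to 3707), the most abundant complex I transcript per length, was at 3474, 3106 and 3038 CPM in shCTL and 5521, 4701 and 4655 CPM in shCdGAP. It rose by 0.63 ± 0.13 on the log2 scale (SE, edgeR adjusted p = 0.0168), less than mt-Nd5. Without shCTL replicate 2 or 3 its adjusted p was 0.0884 or 0.0954. The ratio of mt-Nd5 to mt-Nd1 counts was 0.296, 0.383 and 0.337 in shCTL and 0.446, 0.455 and 0.424 in shCdGAP, without overlap. Of mt-Nd1, mt-Nd2, mt-Nd4 and mt-Nd5, mt-Nd1 rose least and mt-Nd5 most, so the ratio restates that difference.

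mt-Nd4l (M: 9877 to 10173) shares its precursor with mt-Nd4 and overlaps its start, yet its level was near 1 CPM. It was at 0.773, 1.05 and 0.977 CPM in shCTL and 2.10, 2.08 and 1.70 CPM in shCdGAP. The rise was 1.06 ± 0.24 on the log2 scale (SE, edgeR adjusted p = 0.0244), from 70 and 136 counts in the 2 groups. The adjusted p was 0.0582 with the replicate number as a block and reached 0.105 without shCTL replicate 3. It was also above 0.05 without shCTL replicate 1, shCTL replicate 2 or shCdGAP replicate 2. mt-Nd3 (M: 9459 to 9806), untested, had 13 counts over the shCTL libraries and 8 over the shCdGAP libraries.

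mt-Nd6 (M: 13552 to 14070), the complex I subunit read from the light template, had a lower mean in shCdGAP but was not called. Its levels were 42.5, 67.9 and 46.7 CPM in shCTL and 38.6, 43.4 and 24.2 CPM in shCdGAP, groups that overlap through 1 library. The log2 fold change was −0.57 ± 0.27 (SE, edgeR adjusted p = 0.200), and its sign was negative in each of 12 alternative fits on the scale of the whole library. Its 3′ end lies opposite that of mt-Nd5 on the other strand. mt-Nd6 counts equalled 4.14%, 5.71% and 4.56% of mt-Nd5 counts in shCTL and 1.57%, 2.03% and 1.22% in shCdGAP. In every shCdGAP library this ratio was below the lowest shCTL value (4.80% ± 0.816 against 1.61% ± 0.403, SD, n = 3 each).

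Complex III, which passes electrons on to cytochrome c, takes only mt-Cytb (M: 14145 to 15288) from the mitochondrial genome. It was at 2479, 2858 and 2749.6 CPM in shCTL and 5752, 4448 and 4645 CPM in shCdGAP. The groups were far apart, with a log2 fold change of 0.88 ± 0.14 (SE, edgeR adjusted p = 0.00785). The call held whichever library was left out, with adjusted p up to 0.0463.

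Complex IV, cytochrome c oxidase, has 3 mitochondrial subunits that form its catalytic core, and mt-Co1 (M: 5328 to 6872) carries nearly all of the counts. mt-Co1 was at 5943, 5501 and 5019 CPM in shCTL and 13322, 8644 and 7275 CPM in shCdGAP. It had the most counts of any member in all 6 libraries and no overlap between groups, but shCdGAP replicate 1 lay far above replicates 2 and 3. The log2 fold change of 0.83 ± 0.24 missed the threshold (SE, edgeR adjusted p = 0.0545). It passed with the replicate block (0.0416), in DESeq2 (0.00752), without shCdGAP replicate 1 (log2 fold change 0.55, adjusted p = 0.00922) and without shCdGAP replicate 3 (1.00, adjusted p = 0.0350), and also with scaling computed without mitochondrial genes (0.0491) or without a filter on low counts (0.0239). As a share of mitochondrial counts mt-Co1 held 33.9% ± 1.77 in shCTL and 34.9% ± 4.59 in shCdGAP (SD, n = 3 each), which overlap.

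mt-Co2 (M: 7013 to 7696) was at 0.412, 0.473 and 0.639 CPM in shCTL and 2.14, 0.952 and 0.872 CPM in shCdGAP. Its groups did not overlap, but the log2 fold change of 1.36 ± 0.44 missed the threshold (SE, edgeR adjusted p = 0.0775). mt-Co2 passed the filter level in all libraries of shCdGAP alone, so its values are given as a description. mt-Co3 (M: 8607 to 9390) was not tested, having 18 counts over the shCTL libraries and 41 over the shCdGAP libraries. Both genes encode core subunits of the enzyme, and both lay far below mt-Co1 per length.

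ATP synthase takes mt-Atp8 and mt-Atp6, parts of its membrane sector, from the mitochondrial genome, and the reading frames of these genes overlap. The overlap is shown because a fragment that touches it belongs to both genes (M: 7927 to 7969, + strand, GRCm38, with the start codon of mt-Atp6 and the stop codon of mt-Atp8 in capitals).
mt-Atp8 and mt-Atp6 overlap: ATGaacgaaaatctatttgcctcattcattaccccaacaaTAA
mt-Atp8 was at 873, 905 and 828 CPM in shCTL and 1600.0, 1174 and 1207 CPM in shCdGAP, a rise of 0.61 ± 0.15 on the log2 scale (SE, edgeR adjusted p = 0.0295). Without shCTL replicate 1, 2 or 3 its adjusted p was 0.0763 to 0.128. mt-Atp6 was at 173, 178 and 162 CPM in shCTL and 289, 212 and 233 CPM in shCdGAP, a rise of 0.52 ± 0.14 on the log2 scale (SE, edgeR adjusted p = 0.0398), the smallest among the 10 called members. Its adjusted p was 0.0581 with the replicate block, and it reached 0.158 without shCTL replicate 3 and was above 0.05 without shCTL replicate 1, shCTL replicate 2 or shCdGAP replicate 3. Summed over both genes, the level was 1040 ± 46.7 CPM in shCTL and 1572 ± 276 CPM in shCdGAP (SD, n = 3 each).

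Neither rRNA gene was called, although both share the template of the coding genes. mt-Rnr1 (12S, M: 70 to 1024) was at 271, 234 and 198 CPM in shCTL and 232, 193 and 149 CPM in shCdGAP. The groups overlap, and the log2 fold change was −0.29 ± 0.19 (SE, edgeR adjusted p = 0.341). Without shCdGAP replicate 1 it was −0.44 and just passed (adjusted p = 0.0496).

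mt-Rnr2 (16S, M: 1094 to 2675) was at 394, 442 and 448 CPM in shCTL and 619.6, 470.3 and 442 CPM in shCdGAP, a log2 fold change of 0.25 ± 0.15 (SE, edgeR adjusted p = 0.290). Its groups overlap too. The ratio of mt-Rnr2 to mt-Rnr1 counts was 1.46, 1.89 and 2.26 in shCTL and 2.67, 2.44 and 2.96 in shCdGAP, higher in every shCdGAP library. The ratio of coding to rRNA counts was 23.9, 23.3 and 22.9 in shCTL and 38.4, 36.9 and 39.2 in shCdGAP. That ratio varied little within a group (23.4 ± 0.477 and 38.2 ± 1.17, SD, n = 3 each), although the mitochondrial share of shCdGAP replicate 1 stood above the rest.

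**Figure D3:**
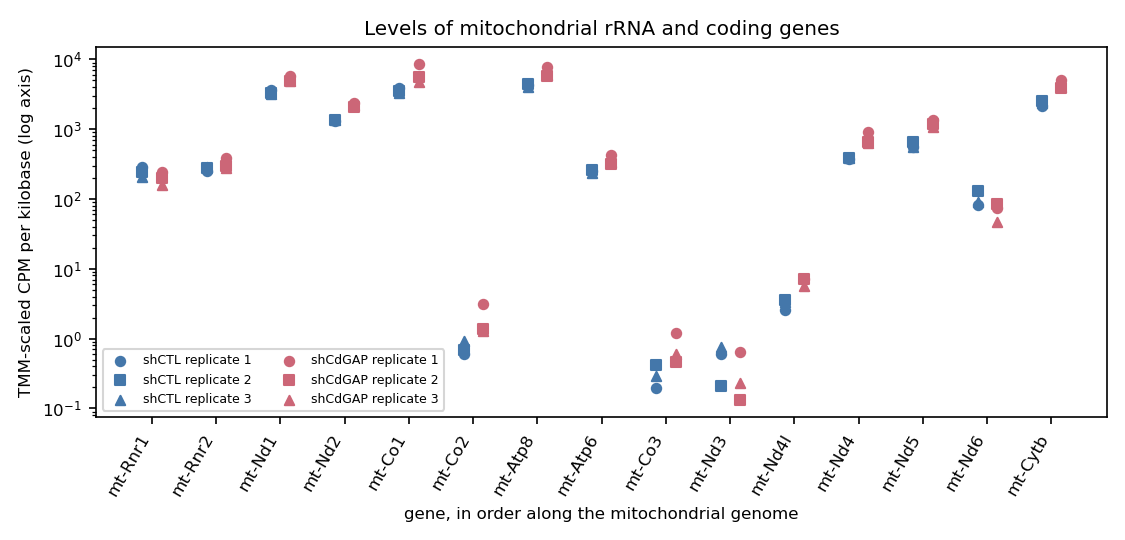
Level of each rRNA and coding gene in CPM per kilobase of gene (log axis), in order along the genome, with shCTL in blue, shCdGAP in red and replicates by symbol. Levels in shCTL run from 4258 for mt-Atp8 to 0.301 for mt-Co3, and mt-Co2, mt-Co3, mt-Nd3 and mt-Nd4l lie far below the other genes in all 6 libraries.

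Counts per length spread widely over the heavy-template coding genes although a common precursor carries them. They may not measure transcript levels, since some of these genes overlap or have near-identical nuclear copies (below). The part of either in this spread was not tested. In shCTL the order in CPM per kilobase was mt-Atp8 (4258 ± 190), mt-Co1 (3552 ± 299), mt-Nd1 (3350.1 ± 245), mt-Cytb (2356 ± 171), mt-Nd2 (1347 ± 30.6), mt-Nd5 (592 ± 51.6) and mt-Nd4 (381 ± 9.01), each as mean ± SD with n = 3. Of these neighbours, mt-Co1 and mt-Nd1 do not differ beyond their spread. Next came mt-Rnr2 (271 ± 18.6), mt-Atp6 (251 ± 11.6) and mt-Rnr1 (245 ± 38.2), whose ranges overlap. mt-Nd6 followed at 101 ± 26.2 CPM per kilobase. mt-Nd4l (3.15), mt-Co2 (0.743), mt-Nd3 (0.519) and mt-Co3 (0.301) closed the order.

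The genes at the low end share a feature that the choice of members did not use, a near-identical nuclear copy. A search of the mitochondrial gene sequences against nuclear transcripts of GENCODE M21 found 7 copies of at least 99% identity in a row on chromosome 1 (GRCm38, 24611535 to 24616197, − strand). They match positions 6390 to 11042 of the mitochondrial genome in unchanged order. The copies of mt-Co2 (Gm28661), mt-Atp6 (Gm10925), mt-Co3 (Gm28437) and mt-Nd4l (Gm10222) are 100% identical over 681, 678, 783 and 294 aligned bases. The copy of mt-Nd4 (Gm28439) is identical over 876 bases of a gene of 1378, and that of mt-Co1 (Gm29216) covers 483 of 1545 bases with 1 substitution, A1066T. The copy of mt-Nd3 (Gm28438) covers 345 of 348 bases and differs at T3C. Positions are counted from the first base of the mitochondrial gene, whose base comes first. The start of mt-Nd3 and of its copy are shown with that base in capitals, since it is the only difference found between them.
mt-Nd3 (M: 9459 to 9481, + strand): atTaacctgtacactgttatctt
Gm28438 (chromosome 1: 24613097 to 24613119, − strand): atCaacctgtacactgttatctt

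A fragment that lies inside such a stretch aligns equally well to both places, and the deposited headers show no option to count multiply aligned fragments. The copies themselves had 0 to 31 counts per library. mt-Atp6 was at 251 CPM per kilobase in shCTL although its copy spans nearly the whole gene. Thus the levels of mt-Co2, mt-Co3, mt-Nd3 and mt-Nd4l, and in part those of mt-Atp6, mt-Nd4 and mt-Co1, are uncertain as measures of those transcripts. mt-Atp8 and the tRNA genes among them also lie within positions 6390 to 11042. The search covered annotated transcripts alone and could not show whether they have copies, so their levels may be uncertain too. For mt-Nd5, mt-Cytb and mt-Nd1, all called higher, no copy of at least 99% identity was found among the annotated nuclear transcripts. How far the counting rule set the low levels was not tested.

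The tRNA genes were thinly covered. Their lengths run from 59 to 75 bases, and over all 6 libraries they took 1506 counts, of which mt-Tl1 took 50.1% and the 4 tested genes 86.1%. The 5 genes mt-Tf, mt-Tk, mt-Tg, mt-Tr and mt-Ts2 had 0 counts in every library. By counting error alone their level could be as high as 3 counts, or 0.109 to 0.155 CPM. That limit leaves out other losses. tRNA genes are shorter than a usual library insert. mt-Tk, mt-Tg and mt-Tr also lie within positions 6390 to 11042, the span matched by the chromosome 1 copies. The part of either in the 0 counts was not tested. At this depth a change in the 5 genes was not detectable.

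mt-Tl1, which carries leucine, was at 3.92, 3.56 and 3.35 CPM in shCTL and 9.29, 5.98 and 5.98 CPM in shCdGAP. It rose by 0.97 ± 0.24 on the log2 scale (SE, edgeR adjusted p = 0.0310), and its adjusted p was 0.0683, 0.123 or 0.130 without shCTL replicate 1, 2 or 3 and 0.0573 without shCdGAP replicate 2. mt-Tw, which carries tryptophan, was at 0.825, 0.909 and 1.28 CPM in shCTL and 4.64, 3.17 and 1.74 CPM in shCdGAP. It rose by 1.65 ± 0.41 on the log2 scale (SE, edgeR adjusted p = 0.0335), the largest change of a called member, from 75 and 218 counts. Its adjusted p was 0.0828 with the replicate block, and it reached 0.131 without shCTL replicate 2 and was above 0.05 without shCTL replicate 1, shCTL replicate 3 or shCdGAP replicate 2.

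mt-Tm, which carries methionine, was at 0.516, 0.545 and 0.677 CPM in shCTL and 1.97, 1.54 and 0.792 CPM in shCdGAP. Its groups did not overlap, and the log2 fold change of 1.29 ± 0.39 missed the threshold (SE, edgeR adjusted p = 0.0617), though it passed in DESeq2 (adjusted p = 0.0377) and without shCdGAP replicate 3 (adjusted p = 0.0211). mt-Tp, the light-template tRNA that carries proline, was at 0.619, 0.909 and 1.58 CPM in shCTL and 0.581, 0.453 and 0.238 CPM in shCdGAP. It was the only tested member whose shCdGAP libraries were all below its shCTL libraries, by a log2 fold change of −1.31 ± 0.48 that missed the threshold (SE, edgeR adjusted p = 0.106). Without shCdGAP replicate 1 it was −1.61 and passed (adjusted p = 0.0396). Replicate 1 had 12 counts in shCTL and 13 in shCdGAP, so the groups separate only after scaling to library size. mt-Tp passed the filter level in all libraries of shCTL alone, so its values are given as a description.

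Summed by template, heavy-template tRNA genes had 106, 152 and 161 counts in shCTL and 378, 250 and 230 in shCdGAP. Light-template tRNA genes had 27, 55 and 76 counts in shCTL and 33, 21 and 17 in shCdGAP, which overlap. The light-template percent of tRNA counts was 20.3%, 26.6% and 32.1% in shCTL and 8.03%, 7.75% and 6.88% in shCdGAP. All shCTL values were above all shCdGAP values, and the shCdGAP libraries were close to each other. The 18 untested tRNA genes, with 0 to 45 counts each over all libraries, were summed by template as well, and gave 38 counts in shCTL and 51 in shCdGAP for the 11 heavy-template genes, and 79 and 42 for the 7 light-template genes.

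**Figure D4:**
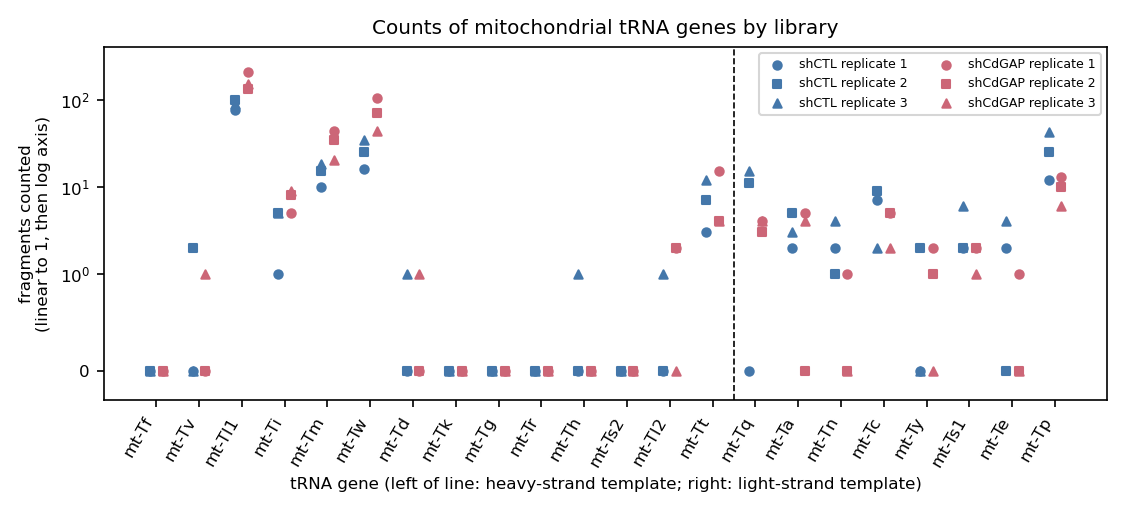
Fragments counted per library for each of the 22 tRNA genes (scale linear up to 1, then log), with heavy-template genes left of the dashed line and light-template genes right of it, shCTL in blue and shCdGAP in red. mt-Tl1, mt-Tm and mt-Tw have all red points above the blue ones, and every light-template gene other than mt-Tp stays at or below 15 counts.

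Since the mitochondrial total itself differed between groups, each member was also compared after scaling every library to its mitochondrial total, a scale chosen after the data had been seen. On this scale 0 of the 17 tested members were higher and 4 were lower in edgeR, where 3.63% of all genes were higher and 54.8% lower and the median of all genes was −0.73. These were mt-Rnr1, mt-Rnr2, mt-Nd6 and mt-Tp. mt-Rnr1 was lower by a log2 fold change of −1.06 ± 0.16 (SE, adjusted p = 0.00248) and mt-Rnr2 by −0.51 ± 0.14 (SE, adjusted p = 0.0188). The light-template gene mt-Nd6 was lower, at −1.32 ± 0.27 (SE, adjusted p = 0.00703). mt-Tp was at −2.09 ± 0.46 (SE, adjusted p = 0.00930), but it entered the test through the shCTL libraries alone, where it was higher, so its call is given as a description. Relative to the mitochondrial total, none of the 13 other tested members passed, with log2 fold changes from −0.24 for mt-Atp6 to 0.84 for mt-Tw.

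The 10 heavy-template rRNA and coding genes with a mean of at least 100 CPM, a limit set after the levels were seen, differed in their change along the precursor. The 2 rRNA genes lie at its start and had changes of −0.29 and 0.25. mt-Nd1, mt-Nd2 and mt-Co1 follow at 0.63, 0.73 and 0.83. mt-Nd4, mt-Nd5 and mt-Cytb near its end were at 0.94, 1.02 and 0.88. mt-Atp8 and mt-Atp6 in the middle, at 0.61 and 0.52, broke this order. So did mt-Cytb, the last of these genes, which was below mt-Nd4 and mt-Nd5. Across these genes, which share the libraries and are not independent, the log2 fold change and the start position had a Pearson r of 0.757 and a Spearman rho of 0.770. With the 8 coding genes alone r was 0.570 and rho 0.548. Taken library by library against the shCTL mean, r was 0.737, 0.731 and 0.742 in shCdGAP and −0.561, 0.722 and 0.318 in shCTL. Thus shCTL replicate 2 alone also had such a slope, and the shCTL libraries spanned a smaller range of changes (−0.24 to 0.21). Each shCTL library is part of the mean it was set against, which narrows that range and makes the shCTL slopes offset each other. The shCdGAP values all share that mean. The r values of the 2 groups therefore cannot be weighed against each other.

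The templates also differ in base composition. mt-Nd6 has 28.1% G and 5.97% C in its RNA-like strand, while the rRNA and coding genes of the heavy template have 5.88% to 16.2% G and 19.2% to 30.0% C. All of these values are properties of the reference sequence, and the part of base composition in the strand contrast was not tested.

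Nuclear genes that serve these 37 were taken from 13 lists with 260 genes, of which 258 were tested. Over the lists 18 rose and 16 fell, so that 13.2% were called against 21.7% of all tested genes, and the median log2 fold change was −0.06. The medians of single lists ran from −0.18 to 0.14. Of the 26 called genes named from these lists, Gatc, Gfm2, Mrpl39, Mtrf1 and Ndufa7 kept their call whichever library was left out. The other 21 lost it in 1 to 5 of the 6 fits, most often without shCTL replicate 2 or 3, with edgeR adjusted p up to 0.183. Levels below are mean ± SD with n = 3, and adjusted p-values are edgeR's.

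Of 10 genes of mitochondrial transcription, 0 rose and 2 fell. Tfam, the factor that packages mitochondrial DNA and helps the polymerase start at its promoters, fell from 92.6 ± 2.60 to 56.7 ± 10.8 CPM (log2 fold change −0.71, adjusted p = 0.0211). Its level was 89.8, 95.0 and 92.9 CPM in shCTL and 45.6, 57.3 and 67.2 CPM in shCdGAP, and was thus lowest in shCdGAP replicate 1, the library with the largest mitochondrial share. Mterf2, of the termination factor family, fell from 10.04 ± 0.948 to 4.77 ± 1.83 CPM (−1.07, adjusted p = 0.0404). In this list 1 member was higher at an unadjusted p under 0.05 in edgeR, and DESeq2 called 1 higher.

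Of 27 genes that cut or modify mitochondrial RNA, 0 rose and 2 fell, with 0 higher in edgeR at an unadjusted p under 0.05 and 0 higher in DESeq2. Trmt10c, a subunit of the enzyme that cuts the 5′ ends of tRNAs out of the precursor, fell from 56.7 ± 0.405 to 36.0 ± 6.63 CPM (−0.66, adjusted p = 0.0282). Fastkd1, of the FASTK family of mitochondrial RNA-binding proteins, fell from 17.5 ± 1.52 to 10.7 ± 1.94 CPM (−0.71, adjusted p = 0.0362). Of 12 genes of RNA stability and decay 1 rose: Lactb2, a mitochondrial endoribonuclease, from 58.8 ± 4.997 to 118 ± 28.5 CPM (1.01, adjusted p = 0.0117). Of 16 genes of mitochondrial DNA maintenance 2 rose. They were Ssbp1, the single-strand binding protein of the replication fork, from 27.6 ± 2.64 to 40.2 ± 4.15 CPM, and Dguok, which makes nucleotides for DNA synthesis, from 8.24 ± 1.07 to 17.4 ± 7.28 CPM.

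Translation genes were mostly not called. Gatc, part of the enzyme that makes glutamine-charged tRNA, rose from 27.5 ± 0.833 to 45.3 ± 1.41 CPM (0.72, adjusted p = 0.00455), and Aars2, the alanine tRNA synthetase, from 15.2 ± 0.624 to 24.2 ± 1.81 CPM, the 2 called of 22 genes that charge tRNAs. Of 12 translation factors, Gfm2, which recycles ribosomes, rose from 34.1 ± 1.13 to 54.4 ± 2.05 CPM (0.67, adjusted p = 0.00535). Mtrf1, of the release factor family, was at 4.02, 4.76 and 4.44 CPM in shCTL and 0.134, 0.0906 and 0 CPM in shCdGAP (−5.83, adjusted p = 0.00117). Of 76 tested mitochondrial ribosomal protein genes 3 rose and 5 fell. Mrpl39 fell from 72.8 ± 2.04 to 41.5 ± 1.95 CPM (−0.81, adjusted p = 0.00247) and Mrpl10 from 107 ± 3.32 to 76.8 ± 0.930 CPM, while Mrpl23 rose from 8.87 ± 0.580 to 17.7 ± 3.67 CPM and Mrpl36 from 32.7 ± 1.87 to 43.5 ± 1.06 CPM (adjusted p = 0.0590 with the replicate block).

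**Figure D5:**
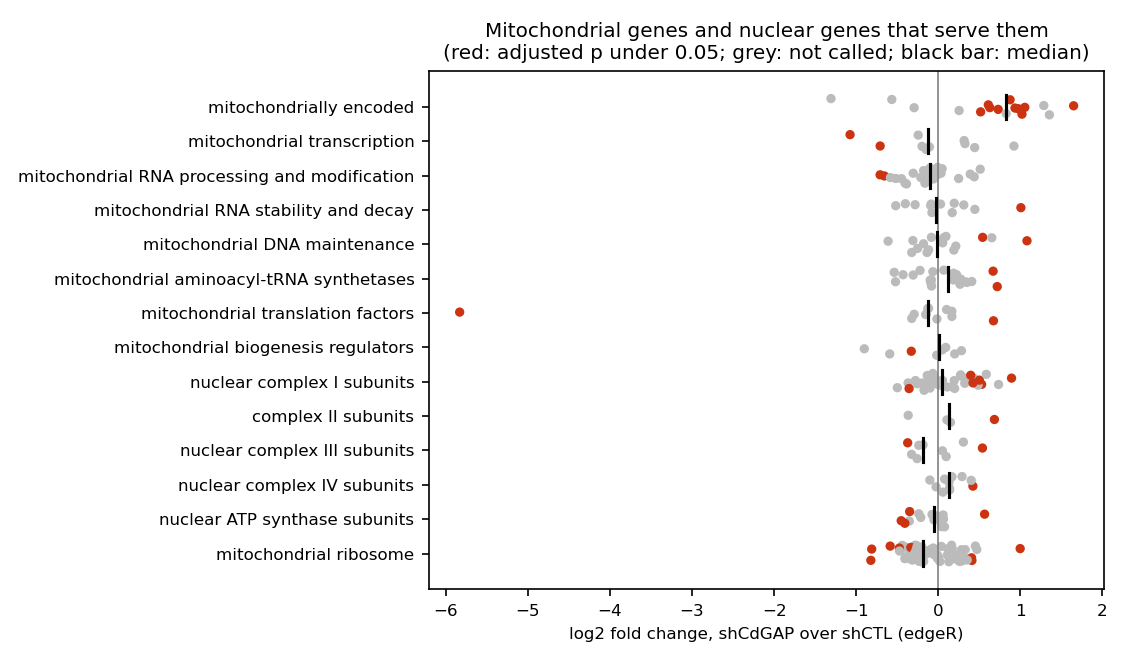
Log2 fold change of each tested gene in edgeR, 1 row for the mitochondrially encoded genes and 1 for each of 13 nuclear lists, with called genes in red, others in grey and the median as a black bar. The mitochondrially encoded row has its median at 0.83, while the medians of the nuclear rows lie close to 0.

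Among the nuclear partners of the mitochondrial subunits, calls went in both directions. Of 36 nuclear complex I genes 5 rose and 1 fell. Ndufa7 rose from 59.4 ± 3.66 to 110 ± 12.02 CPM (0.89, adjusted p = 0.00351) and Ndufv2 from 75.8 ± 2.04 to 107 ± 5.29 CPM, and Ndufb5 fell from 83.0 ± 2.60 to 64.9 ± 3.92 CPM (adjusted p = 0.0723 with the block). Complex II, which has no mitochondrially encoded subunit, had 1 of 4 genes called: Sdha, its catalytic subunit, rose from 187 ± 2.15 to 301 ± 44.3 CPM (0.69, adjusted p = 0.0115). Of 9 nuclear complex III genes, Uqcrb rose from 47.1 ± 1.93 to 68.5 ± 2.38 CPM and Uqcr11 fell from 111 ± 1.15 to 85.5 ± 7.59 CPM (adjusted p = 0.0663 with the block). Of 11 tested nuclear complex IV genes, Cox7c alone was called, from 77.1 ± 2.82 to 103 ± 5.06 CPM. Of 15 nuclear ATP synthase genes 1 rose and 3 fell, among them Atp5g2 from 75.0 ± 5.35 to 111 ± 14.5 CPM, Atp5j from 143 ± 2.68 to 108 ± 2.36 CPM and Atp5o from 153 ± 4.87 to 120.2 ± 3.83 CPM (adjusted p = 0.0682 with the block). Of 8 regulators of mitochondrial biogenesis, only Gabpa was called, lower at 105 ± 4.05 CPM against 131 ± 4.38 CPM (−0.33, adjusted p = 0.0452, and 0.0745 with the block).

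RNAs that usually lack a poly(A) tail were set beside the mitochondrial RNAs, because the selection of RNA is not stated. Of 59 such genes 5 were tested and 0 were called in edgeR or DESeq2, with 0 higher and 1 lower at an unadjusted p under 0.05 in edgeR and 1 higher and 0 lower in DESeq2. Their summed level was 18.9 to 30.1 CPM in shCTL and 79.5, 21.0 and 24.9 CPM in shCdGAP replicates 1 to 3. The histone genes Hist1h1c and Hist1h2bc held most of this sum in every library, so it describes these 2 genes more than the list. Whether their RNAs lacked a tail in these cells was not tested, and the sum is no measure of RNA without a tail. Rn7sk had 8 to 17 counts per library, Rmrp 0 to 7 and Rpph1 0 to 4. How these levels relate to the selection of RNA was not tested. The high sum of shCdGAP replicate 1, which also has the largest mitochondrial share, came mostly from Hist1h1c at 62.5 CPM. Without that library the log2 ratio of the light-template share of mitochondrial counts was −1.26, against −1.34 with it, and that of the rRNA share was −0.68 either way.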

How the data were processed

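RNA of 6 libraries was sequenced on an Illumina HiSeq, per the series' design text. Total RNA was extracted with TRIZOL and RNeasy columns, per the labels' protocols, which name no step that selects RNA. TopHat2 2.0.14 with GRCm38, Trimmomatic 0.30, CASAVA 1.8, DESeq and Cuffdiff 2.2.1 are named in the submitters' processing notes. The deposited values are raw fragment counts per gene, which the authors made with featureCounts 1.4.6 and Ensembl release 77, per the file headers. The options there required both ends of a pair to align, dropped chimeric pairs and set strand 2 (reverse). They name no option for fragments that align to several places or overlap several genes.

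Members were all genes on MT, named and classed through GENCODE M21, whose positions matched for all 37. Members and lists were chosen with earlier results of these data known. The genes named are all coding and rRNA members, the tested tRNA members, Arhgap31, and from each nuclear list the 2 risen and 2 fallen called genes with the smallest adjusted p. One gene of the DNA maintenance list was not analysed here.

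Counts were fitted over the whole table with edgeR 4.0.16 in R 4.3.3: filterByExpr (minimum count 10, minimum total 15), TMM scaling, quasi-likelihood F test over all 6 libraries, and Benjamini-Hochberg adjustment over 13483 tested genes. Calls were made where the adjusted p was under 0.05, and adjusted p-values are from this test unless DESeq2 1.42.0 is named. SE is the absolute log2 fold change over the square root of F. CPM is TMM-scaled, and shares use raw counts. The fit was tested on simulated data, where it missed most of the smaller changes, so a gene not called may still differ. No library pair agreed within sampling noise (lowest chi-square per degree of freedom 3.00, shCTL replicates 2 and 3), so each library counts as 1 replicate. Same-numbered libraries of the 2 groups deviated together (r = 0.336, 0.247 and 0.223 over tested genes), so the numbers are taken to pair the libraries, from the data alone. Crossed numbers 2 and 3 correlated nearly as well (0.219 and 0.167), and only number 1 stood clearly apart. Deviations were taken within groups of 3, so an odd number 1 by itself makes numbers 2 and 3 correlate in either order. How numbers 2 and 3 pair is thus not shown. Alternatives were leaving out each library, the replicate block, DESeq2, library totals, scaling without mitochondrial genes, other filters, and for shares leaving out the rRNA genes or averaging log2 levels.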

Additional observations from a re-analysis of the deposited data

How the results depend on the processing

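Of the tested members, mt-Nd2, mt-Nd4, mt-Nd5 and mt-Cytb kept their call in every alternative fit on the scale of the whole library. With each library left out in turn, 4 to 11 members were called higher and 0 to 2 lower, 538 to 2753 of all genes higher and 856 to 3032 lower, and 3 to 49 genes of the nuclear lists higher and 2 to 32 lower. The highest of these counts over all genes came without shCdGAP replicate 1 and the lowest without shCTL replicate 2, and the cause was not tested. The replicate block was used because the numbers were taken to pair the libraries, from the data alone, which do not show how numbers 2 and 3 pair. With the block 8 members were called higher and 0 lower, and over all genes 1277 were higher and 1468 lower. The block changed 9 of the 47 calls of named genes, given beside each gene, and no other. Where only genes averaging 10 CPM or more were tested, 870 were called higher and 825 lower, fewer genes being tested, and without a filter 10 genes of the nuclear lists were called lower.

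Scaled to the mitochondrial total, an alternative chosen after seeing the data, 0 members were called higher and 4 lower, and the log2 fold changes of mt-Rnr2 (−0.51), mt-Nd1 (−0.12), mt-Nd2 (−0.013), mt-Atp8 (−0.15) and mt-Atp6 (−0.24) changed sign, as that scale sets the mitochondrial total equal in all libraries. With each library left out Hist1h2bc ran from −0.31 (without shCdGAP replicate 1) to 0.41, and was −0.02 without shCTL replicate 1.

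As log2 ratios with each library left out, the mitochondrial share ran from 0.55 to 0.80, the light-template share from −1.59 to −1.13, the rRNA share from −0.71 to −0.66, the coding share stayed at 0.02, and the tRNA share ran from −0.10 to 0.15 around 0.00. The summed CPM ran from 0.66 to 0.79 for complex I, 0.75 to 0.95 for complex III, 0.54 to 1.00 for complex IV and 0.44 to 0.68 for ATP synthase. Averaging log2 levels per gene gave −0.63 for the rRNA share, 0.022 for tRNA, 0.11 for coding and 0.63 for complex I. The tRNA share was 0.0029 with the replicate block and 0.046 without genes that have a near-identical nuclear copy, also chosen after seeing the data, and the coding share was then 0.037. Without the rRNA genes the coding share was 1.22e-05. Depth limits the tRNA genes most: 14 of 22 had 20 counts or fewer over all libraries.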
